A study of Homo sapiens with 6 samples.

Results

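Depletion of SMARCD2 by either of 2 short hairpins, in vehicle as well as under all-trans retinoic acid (ATRA), was compared with a control construct to find the genes that moved 1 way in both treatments. All 6 libraries of the series entered: 4 knockdown libraries and 2 control libraries, each knockdown library being set against the control library of its own treatment, which gives 4 ratios per gene. Of 13289 genes listed in either of the 2 deposited tables, 12301 were listed in both and could be compared. A gene was described where all 4 ratios had the same sign, which held for 3542 genes (28.8%), 1793 of them higher (14.6%) and 1749 lower (14.2%) with the hairpins.

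The cells were NB4, a human acute promyelocytic leukemia line arrested at the promyelocyte stage, which matures toward granulocytes when ATRA relieves the block imposed by the leukemic retinoic acid receptor fusion. SMARCD2 (BAF60B) belongs to the accessory subunits of BAF, or SWI/SNF, remodelling complexes, which move nucleosomes, and its paralogs are SMARCD1 and SMARCD3. People born without functional SMARCD2 have specific granule deficiency, in which neutrophils lack late granules. Azurophil granules, in contrast, are filled at the promyelocyte stage with proteases and peroxidase.

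The groups were NB4 with a scrambled control construct in DMSO (1 library), the same in ATRA at 1 µM (1 library), and NB4 with hairpin 1 or hairpin 2 against SMARCD2 in DMSO (2 libraries) or in ATRA (2 libraries). Each construct thus gave 1 library per treatment, so the 4 knockdown libraries come from 2 hairpins and the control libraries from 1 construct. No source used here says whether libraries came from separate cultures, and p-values measure only the spread between these 6 libraries, which may be technical. The labels used here give no duration of treatment.

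Library totals ranged from 29291209 to 58099733 counts, lowest in both controls, summed over 2 sequencing runs. The runs were mixed differently in the 2 states: run 1 gave 53.1% to 54.6% of the counts of the control libraries and 70.6% to 80.7% of those of the knockdown libraries. Myeloperoxidase (MPO), a defining product of promyelocytes, stood between 4298 and 10044 CPM (counts scaled to library size, with TMM, the trimmed mean of M-values) in all 6 libraries. The myeloid surface antigen CD33 stood between 47.8 and 61.6 CPM in the same 6 libraries. ELANE, the gene of neutrophil elastase, was listed in DMSO only and was not compared.

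Effects common to both treatments were small. Over the 1793 genes higher in all 4 ratios the median log2 fold change of the knockdown, fitted with treatment as a covariate, was 0.12, and over the 1749 lower genes it was -0.14, against 0.0027 over all 12301 genes. The signs chose these genes, so both medians are a description. Among genes averaging 5 CPM or more, 21 of 1608 higher and 17 of 1405 lower ones differed by 1.5-fold or more. Counting all 10358 genes at that level gave 45. With edgeR's quasi-likelihood test (4 knockdown against 2 control libraries, Benjamini-Hochberg adjustment over 12301 genes), 0 genes passed an adjusted p of 0.05 in either direction (0%), and the smallest adjusted p was 0.091, for ATF5. An unadjusted p under 0.05 was found for 1003 genes (8.15%), of which 510 were higher (4.15%) and 493 lower (4.01%). limma-voom called 0 genes (0%) with a smallest adjusted p of 0.076. DESeq2 called 20 higher (0.163%) and 28 lower genes (0.228%), and all 48 had 1 direction in the 4 ratios.

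When edgeR's fit included the hairpin, which sets aside what the hairpins differed by in both treatments, 8 genes were called higher (0.065%) and 2 lower (0.0163%). These were PRTN3, PVRL1, MT1A, MT2A, IFI27, HDAC9, PRG2 and NCAM1, and the lower genes SMARCD2 and ATF5. NCAM1 and HDAC9 fall outside the rule for named genes and are given here because they were called. DESeq2 also called 8 of these 10 genes. The error of the fit with the hairpin term leaves out the spread between constructs, so its p-values can understate the error of a knockdown effect.

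Between the treatments, opposite signs were nearly as frequent as like signs. Both hairpins moved 1 way in DMSO for 69.9% of genes and 1 way in ATRA for 76.7%, and each such pair of ratios shares its control library. For 3102 genes (25.2%) both hairpins moved 1 way in DMSO and the other way in ATRA, against the 3542 (28.8%) with 1 direction throughout. Hairpin 2 left less SMARCD2 than hairpin 1. Its ratio was the larger in size for 53.4% of the higher and 54.1% of the lower genes in DMSO, beside 52.7% of all genes. In ATRA the shares were 62.9% and 67.0%, beside 63.6% of all genes. The members therefore stood near all genes in this respect.

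**Figure D1:**
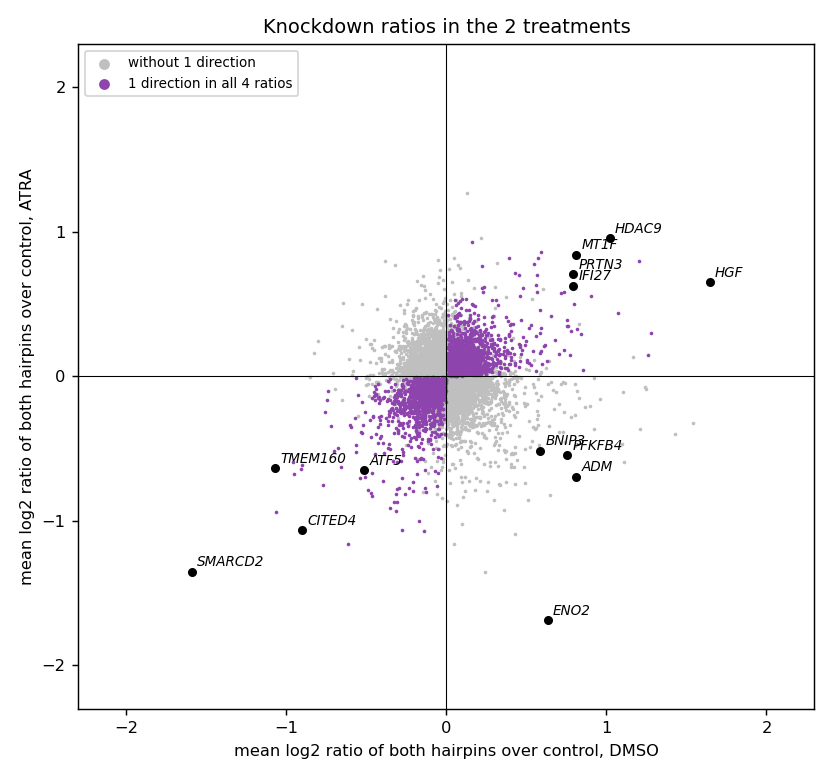
Mean log2 ratio of both hairpins over the control in DMSO (x axis) and in ATRA (y axis), 1 point per gene, for the 10358 genes averaging 5 CPM or more; violet points have 1 direction in all 4 ratios and grey points do not. Labelled genes in the lower left and upper right quadrants moved 1 way in both treatments (SMARCD2, CITED4, TMEM160, ATF5 and HGF, HDAC9, MT1F, PRTN3, IFI27), and those in the lower right (ENO2, ADM, PFKFB4, BNIP3) were above the control in DMSO and below it in ATRA.

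Base composition moved with direction. The median GC content of the longest transcript was 44.5% for the higher genes, 52.2% for the lower genes and 48.7% for all genes with a value (12260 of 12301, 99.7%). Among 5 equal bins of genes by GC content, in the lowest bin 23.4% were higher and 7.46% lower in all 4 ratios. The highest bin held 12.1% higher and 17.7% lower genes. After offsets for GC content and length were fitted in each library, the same shares were 14.7% and 12.4% in the lowest bin and 16.1% and 13.7% in the highest. Of the 1793 higher genes 1454 kept 1 direction upward after that correction, and of the 1749 lower genes 1424 kept 1 direction downward. The part of GC content, or of the run mix, in the small shifts of single genes was not tested beyond this.

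**Figure D2:**
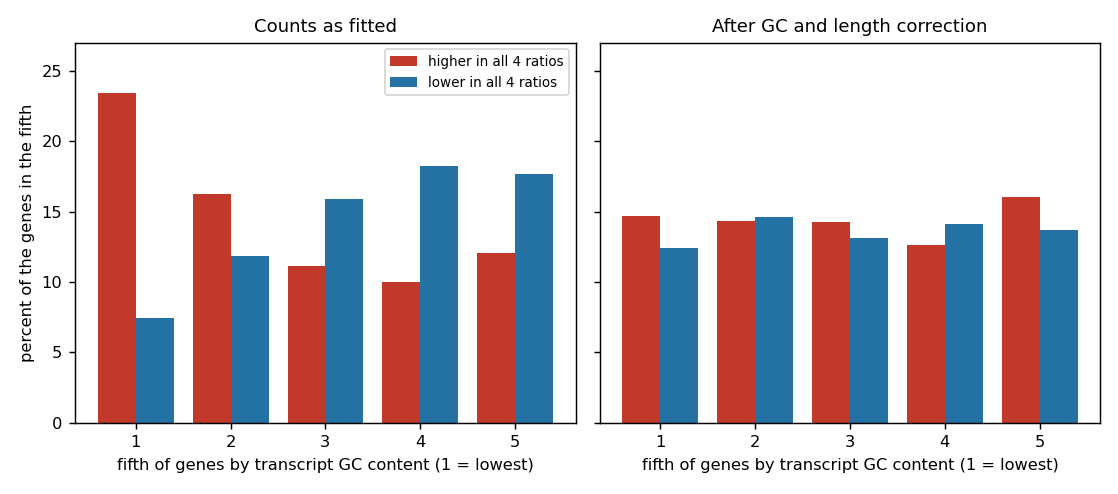
Share of genes (percent of each bin, y axis) that were higher (red) or lower (blue) in all 4 ratios, in 5 equal bins of transcript GC content from lowest to highest (x axis), as fitted (left) and after GC and length offsets (right). The excess of higher over lower genes in the lowest bin, 23.4% against 7.46%, became 14.7% against 12.4% after the offsets.

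The targeted gene and its complex were examined first. SMARCD2 stood at 95.5 CPM in the control in DMSO, at 39.0 with hairpin 1 and at 25.7 with hairpin 2, and in ATRA at 122, 64.2 and 35.6 CPM in the same order. All 4 knockdown libraries lay below both controls, with hairpin 2 below hairpin 1 in each treatment. Its log2 fold change was -1.42 ± 0.22 (SE), 2.68-fold lower, with an adjusted p of 0.38 in edgeR's main fit and 6.99e-04 with the hairpin as a term, where the difference between hairpins no longer counts as error. DESeq2 gave an adjusted p of 0.029. Leaving out each library in turn gave values from -1.65 to -1.28.

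SMARCD3, the paralog known from muscle BAF complexes, stood at 40.2 CPM in the DMSO control, 35.3 with hairpin 1 and 29.1 with hairpin 2. In ATRA its levels were 13.3, 8.04 and 6.51 CPM. It was below the matching control in 4 of 4 libraries, by -0.56 ± 0.14 on the log2 scale (adjusted p = 0.49, edgeR), and this value moved from -0.87 to -0.32 over the fits that left out 1 library each (both extremes when a control library was left out). SMARCD1 was lower by -0.10 ± 0.06 in 4 of 4 ratios, and by -0.05 to -0.13 with 1 library left out. Of 29 measured subunits of BAF, PBAF and ncBAF complexes, 3 were higher (10.3%) and 7 lower (24.1%) in all 4 ratios, SMARCD2 and both paralogs included. The shares over all genes were 14.6% and 14.2%, and the median log2 fold change of the 29 was -0.01. The core subunit gene SMARCB1 was lower by -0.14 ± 0.05, and GLTSCR1, which codes for an ncBAF subunit, by -0.21 ± 0.07. The value of GLTSCR1 was -0.10 without the DMSO control, -0.33 without the ATRA control and -0.13 after the GC and length offsets. None of the 29 was called by the main fit, and SMARCD2 was the 1 called with the hairpin term.

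Among the lower genes, ATF5 had the smallest p. ATF5, a basic leucine zipper factor induced downstream of ATF4 in the amino acid and mitochondrial stress responses, stood at 128 CPM in the DMSO control and at 90.5 and 88.9 with hairpins 1 and 2, and at 78.3, 52.5 and 47.5 CPM in ATRA. Within each treatment both hairpins lay below the control and close to each other. The log2 fold change was -0.58 ± 0.06, 1.49-fold lower (adjusted p = 0.091 in edgeR's main fit, 0.031 with the hairpin term and 1.25e-10 with DESeq2). Over fits leaving out 1 library it lay between -0.65 and -0.51.

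CEBPB codes for C/EBP beta, a factor of stress-driven granulopoiesis and of the monocytic lineage. It stood at 19.3 CPM in the DMSO control against 13.2 and 15.3 with hairpins 1 and 2, and at 139 CPM in the ATRA control against 102 and 90.1. Levels were several times higher in ATRA, yet in both treatments the hairpin libraries were below the control, by -0.50 ± 0.08 on the log2 scale (1.41-fold; adjusted p = 0.38, edgeR; 3.03e-04, DESeq2). JUND, an AP-1 subunit, had the same arrangement, at 23.9 CPM against 16.7 and 18.6 in DMSO and at 82.4 CPM against 65.9 and 59.3 in ATRA. Its log2 fold change was -0.42 ± 0.07 (adjusted p = 0.38 in edgeR and 0.0034 in DESeq2). After the GC and length offsets the values were -0.45 for CEBPB and -0.32 for JUND. JUN was also lower in 4 of 4 ratios (-0.38 ± 0.12), with a ratio near 0 for hairpin 2 in DMSO (-0.01), and its value was -0.65 without the DMSO control and -0.13 without the ATRA control.

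CITED4, a coactivator that binds CBP-type acetyltransferases, came next after SMARCD2 in size among the 12 lower genes with the smallest p. It stood at 10.7 CPM in the DMSO control against 5.37 and 6.08 with the hairpins, and at 5.53 CPM in the ATRA control against 2.61 and 2.67. The log2 fold change was -0.98 ± 0.13, 1.97-fold lower (adjusted p = 0.20 and, with the hairpin term, 0.056 in edgeR; 5.53e-05 in DESeq2). After the GC and length offsets it was -0.83. TMEM160, a small transmembrane protein gene, went from 73.5 CPM to 33.0 and 37.1 in DMSO and from 36.6 CPM to 27.4 and 20.3 in ATRA. Its log2 fold change of -0.86 ± 0.13 ranged from -1.07 without the ATRA control to -0.62 without the DMSO control. With the GC and length offsets it was -0.74.

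The other lower genes with the smallest p were the linker histone gene H1FX (-0.31 ± 0.05), SH3D21 (-0.56 ± 0.09), the neuropeptide W gene NPW (-0.84 ± 0.14), the matrilin gene MATN4 (-0.78 ± 0.13), the sulfotransferase gene CHST7 (-0.43 ± 0.08) and GGT7 of the gamma-glutamyltransferase family (-0.43 ± 0.08). For each of these 6 genes all 4 ratios lay between -0.98 and -0.22. After the GC and length offsets the log2 fold changes were -0.23, -0.55, -0.70, -0.74, -0.41 and -0.42 in the same order. Levels differed by treatment, as for CHST7, which was at 3.86 CPM in the DMSO control and 44.8 CPM in the ATRA control, while the ratios of -0.36 and -0.36 in DMSO and -0.48 and -0.46 in ATRA were alike.

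**Figure D3:**
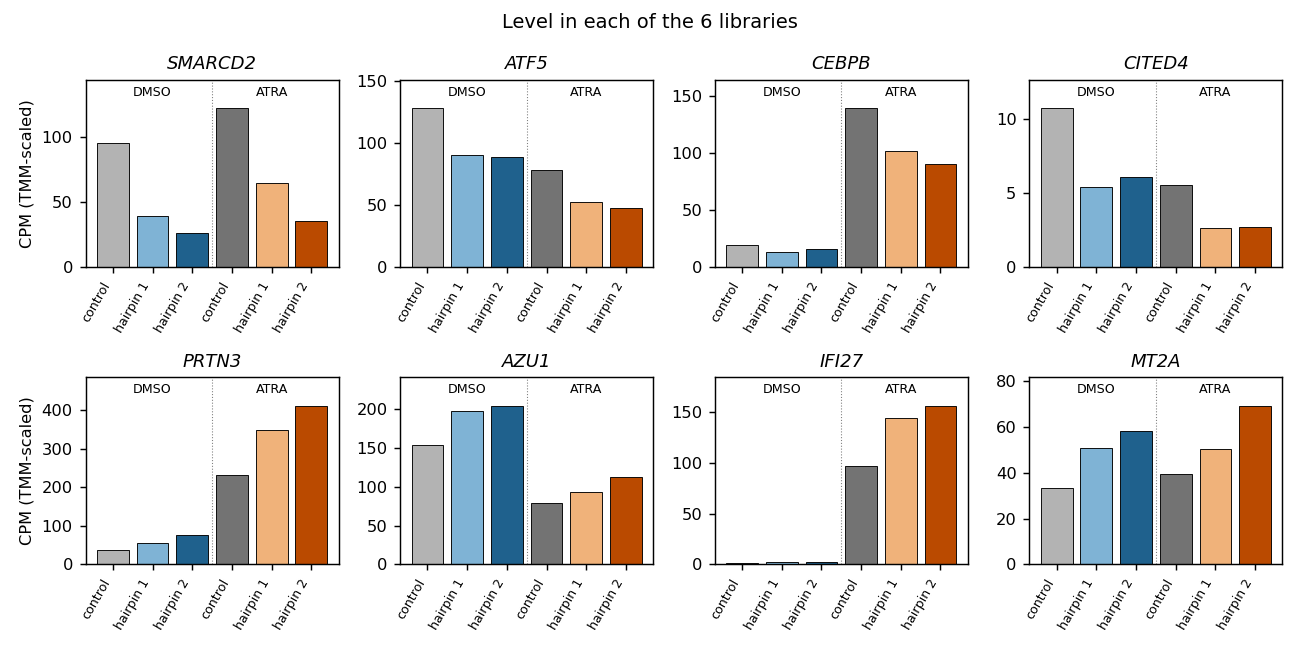
Level in each of the 6 libraries (bars, TMM-scaled CPM, 1 library per bar and so no error bar) for 4 genes lower with the hairpins (top) and 4 higher (bottom), in DMSO (left of the dotted line) and ATRA (right). In every panel both hairpin bars of a treatment lie on 1 side of the grey control bar, as the choice of these genes required. The level itself differs between treatments, from 1.49 CPM to 96.9 CPM between the controls for IFI27.

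Among the higher genes, products of the azurophil granule, metallothioneins and interferon-induced genes were found near the top. PRTN3, the gene of proteinase 3, a serine protease of azurophil granules, stood at 37.0 CPM in the DMSO control and at 54.7 and 75.3 with hairpins 1 and 2. In ATRA it stood at 232, 349 and 411 CPM. Both hairpins exceeded the control in each treatment, hairpin 2 by more. The log2 fold change was 0.76 ± 0.13, 1.69-fold higher (adjusted p = 0.38 in edgeR's main fit, 0.016 with the hairpin term and 5.44e-06 with DESeq2).

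AZU1 codes for azurocidin, an antimicrobial protein of the same granule. It was at 154 CPM in the DMSO control against 197 and 204, and at 78.6 CPM in the ATRA control against 93.7 and 112. Its level was thus lower in ATRA where that of PRTN3 was higher, while the knockdown ratios pointed 1 way in both, with a log2 fold change of 0.39 ± 0.07 (adjusted p = 0.42, edgeR; 0.0025, DESeq2). Of 21 measured azurophil granule genes, 8 were higher (38.1%) and 1 lower (4.76%) in all 4 ratios, beside 14.6% and 14.2% of all genes, with a median log2 fold change of 0.10. At an unadjusted p under 0.05 stood 7 higher (33.3%) and 1 lower (4.76%) of the 21. The proteoglycan gene SRGN (0.23 ± 0.06) and RNASE2, the eosinophil-derived neurotoxin gene (0.40 ± 0.11), were the other named members. MPO, also among the 8 higher genes, had ratios of 0.03 and 0.02 in DMSO and 0.29 and 0.42 in ATRA. CTSG, the cathepsin G gene, had ratios of -0.06 and -0.26 in DMSO and 0.39 and 0.88 in ATRA. The 1 lower gene was GAA (-0.16 ± 0.05). The list median was 0.05 without the ATRA control and 0.15 without the DMSO control. In such bulk libraries a change in the share of a cell type and a change in RNA per cell cannot be told apart. RNASE2 ratios were 0.21 and 0.24 in DMSO and 0.48 and 0.74 in ATRA, and its main effect was 0.22 without the ATRA control and 0.61 without the DMSO control.

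Genes of later granules and of the oxidase were counted in the same way, and their difference from the azurophil list was not tested. Of 26 specific granule genes only 14 were listed in both tables, so this list was compared in part. Of these 14 genes 2 were higher (14.3%) and 1 lower (7.14%) in all 4 ratios, beside 14.6% and 14.2% of all genes. Of 17 genes of gelatinase granules and secretory vesicles 11 were compared, 3 of them higher (27.3%) and 0 lower. Of 9 NADPH oxidase genes 0 were higher and 2 lower (22.2%). BPI, whose product kills gram-negative bacteria, stands in the azurophil as well as the specific granule list and counts among the higher genes of both. It had ratios of 1.23 and 1.29 in DMSO, where it stood between 0.552 and 1.37 CPM, and of 0.21 and 0.09 in ATRA, where it stood between 576 and 668 CPM. The oxidase gene NCF1 stood at 3226 CPM in the ATRA control against 2634 and 2403, and in DMSO at 3.23 and 3.71 CPM with the hairpins, near its control. Its log2 fold change of -0.31 ± 0.08 is uncertain, since near-identical copies of NCF1 can share reads. NCF4, another oxidase subunit, was lower by -0.18 ± 0.06.

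Metallothioneins, cysteine-rich proteins that bind zinc and copper, stood higher together. Of 7 measured metallothionein genes 6 were higher in all 4 ratios, which held for 14.6% of all genes. All 7 had an unadjusted p under 0.05, with log2 fold changes from 0.65 to 1.15. MT2A stood at 33.2 CPM in the DMSO control against 50.9 and 58.3, and at 39.6 CPM in the ATRA control against 50.5 and 69.1. Both hairpins were above the control in each treatment, hairpin 1 in ATRA by least (0.35 on the log2 scale, the other ratios being 0.61, 0.81 and 0.80). The log2 fold change of MT2A was 0.65 ± 0.13, 1.57-fold higher (adjusted p = 0.43 in edgeR's main fit, 0.036 with the hairpin term and 9.04e-04 with DESeq2). MT1A had nearly the same levels and ratios (0.67 ± 0.13). These paralogs are close in sequence and their counts may share reads, so the 7 genes are not 7 separate observations.

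MT1F (0.84 ± 0.19) and MT1G (0.99 ± 0.29) were at or below 11.9 CPM in all libraries. Of the 18 measured genes of the whole list of metallothioneins and zinc handling, 9 were higher (50.0%) and 1 lower (5.56%) in all 4 ratios. The shares over all genes were 14.6% and 14.2%, and the list median was 0.11. A count of 0 of the 18 genes had opposite signs between treatments with both hairpins, beside 25.2% of all genes. The list median lay between 0.10 and 0.17 over the fits leaving out 1 library, the upper value being that without hairpin 1 in DMSO.

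Metal response elements, bound by the zinc sensor MTF1, are known to drive metallothionein promoters, and 2 metallothionein genes had a promoter entry in RefSeq (GRCh38.p14). The 250 bases upstream of each start are shown, 5′ to 3′ on the gene's strand, because these genes stood higher together. Capitals mark matches to the element core TGCNCNC on either strand, where matches may overlap. The MT2A window lies at chr16:56608334-56608583 (plus strand) and holds 7 matches, and that of MT1X at chr16:56682220-56682469 (plus strand) holds 4.
MT2A: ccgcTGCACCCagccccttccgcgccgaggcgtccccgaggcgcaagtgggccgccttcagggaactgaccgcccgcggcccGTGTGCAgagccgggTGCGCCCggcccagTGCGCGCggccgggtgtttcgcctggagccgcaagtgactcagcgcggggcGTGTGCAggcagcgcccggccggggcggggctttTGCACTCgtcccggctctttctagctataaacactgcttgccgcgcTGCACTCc
MT1X: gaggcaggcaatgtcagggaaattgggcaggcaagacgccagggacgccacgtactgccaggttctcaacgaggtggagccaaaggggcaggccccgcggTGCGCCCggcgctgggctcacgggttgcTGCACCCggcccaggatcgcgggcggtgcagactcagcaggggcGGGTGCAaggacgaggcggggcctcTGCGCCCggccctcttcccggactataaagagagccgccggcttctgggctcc

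At least 1 match was present in 56.5% of the 9550 such windows of tested genes, and at least 4 in 2.02%. Windows with at least 4 matches made up 2.08% of those of the higher and 1.06% of those of the lower genes. The order was reversed for at least 1 match, present in 54.8% of the windows of the higher and 56.9% of those of the lower genes. MT1X, the 1 metallothionein without 1 direction, had ratios of 0.88 and 0.77 in DMSO and -0.06 and 0.78 in ATRA. A match is a description of letters and not of a bound site.

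Interferon-induced genes, which code for antiviral effectors, stood higher in part. Of 41 measured genes of the list 17 were higher (41.5%) and 0 lower in all 4 ratios, beside 14.6% and 14.2% of all genes. An unadjusted p under 0.05 was found for 10 higher genes (24.4%) and 0 lower genes, beside 4.15% and 4.01% of all genes. The median log2 fold change was 0.15. IFI27, a mitochondrial protein gene strongly induced by type I interferon, stood at 1.49 CPM in the DMSO control against 2.36 and 2.85 with hairpins 1 and 2, and at 96.9 CPM in the ATRA control against 144 and 156. Levels in ATRA were far above those in DMSO, and in both the hairpin libraries exceeded the control. The log2 fold change was 0.65 ± 0.08, 1.57-fold higher (adjusted p = 0.20 in edgeR's main fit, 0.036 with the hairpin term and 5.44e-06 with DESeq2).

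RSAD2, the viperin gene, was higher by 0.24 ± 0.06, with ratios from 0.21 to 0.29. IFI6 stood at 145 CPM in the DMSO control against 159 and 231, and at 1601 CPM in the ATRA control against 2034 and 2070, a log2 fold change of 0.39 ± 0.12. LGALS3BP was higher by 0.22 ± 0.07 (0.07 without the ATRA control), with a ratio of 0.00046 for hairpin 2 in DMSO, at the edge of the rule of sign. The list's medians by library were uneven: 0.44 for hairpin 2 in DMSO, and 0.11, 0.09 and 0.02 for hairpin 1 in DMSO, hairpin 1 in ATRA and hairpin 2 in ATRA. Without the DMSO control, so that ATRA alone informed the fit, the median was 0.04, and without the ATRA control it was 0.26. For hairpin 1 alone it was 0.09, and for hairpin 2 alone 0.25.

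The sequences upstream of IFI27 and IFI6 (RefSeq, GRCh38.p14, 250 bases, 5′ to 3′ on the gene's strand) are shown since both were named members of the list. Capitals mark matches to the core of the interferon-stimulated response element, GAAA repeated after any 2 bases, on either strand. The IFI27 window lies at chr14:94110486-94110735 (plus strand) and holds 2 matches, and the IFI6 window at chr1:27672193-27672442 (minus strand) holds 3.
IFI27: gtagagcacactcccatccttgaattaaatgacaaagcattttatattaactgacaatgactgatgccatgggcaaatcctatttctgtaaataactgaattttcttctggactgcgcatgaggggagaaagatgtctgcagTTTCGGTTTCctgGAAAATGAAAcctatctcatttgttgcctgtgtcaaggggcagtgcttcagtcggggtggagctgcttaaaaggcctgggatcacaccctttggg
IFI6: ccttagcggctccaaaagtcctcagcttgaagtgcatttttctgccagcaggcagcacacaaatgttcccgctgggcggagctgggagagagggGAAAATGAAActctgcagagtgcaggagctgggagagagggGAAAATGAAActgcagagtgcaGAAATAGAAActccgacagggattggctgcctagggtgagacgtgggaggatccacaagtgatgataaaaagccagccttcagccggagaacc

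This element was present in 2.28% of the 9550 windows of tested genes and in 61.3% (19 of 31) of those of the interferon list. It was present in 3.23% of the windows of genes higher in all 4 ratios and in 1.59% of those lower in all 4 ratios. Both shares include the genes of the interferon list.

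The remaining higher genes with the smallest p had varied functions. PVRL1, the gene of the adhesion receptor nectin-1, stood at 13.8 CPM in the DMSO control against 18.0 and 23.2, and at 52.7 CPM in the ATRA control against 78.4 and 93.7. Its log2 fold change was 0.65 ± 0.12 (adjusted p = 0.38 in edgeR's main fit, 0.036 with the hairpin term and 5.60e-04 with DESeq2). BIK, a gene of a death-promoting protein of the BCL2 family, was higher by 0.65 ± 0.14, and by 0.50 to 0.81 with 1 library left out (0.81 without the ATRA control). DTWD2, which codes for a transfer RNA modifying enzyme, differed by less but evenly, with ratios of 0.24, 0.24, 0.24 and 0.28 and a log2 fold change of 0.25 ± 0.04.

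SCD, the stearoyl-CoA desaturase gene, was higher by 0.23 ± 0.05, TAGAP, a GTPase activating protein gene, by 0.33 ± 0.07, and FAM101B, an actin regulator gene, by 0.30 ± 0.06 (0.20 without the ATRA control and 0.39 without the DMSO control). DESeq2 called each of the 11 higher genes named by smallest p except TAGAP.

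**Figure D4:**
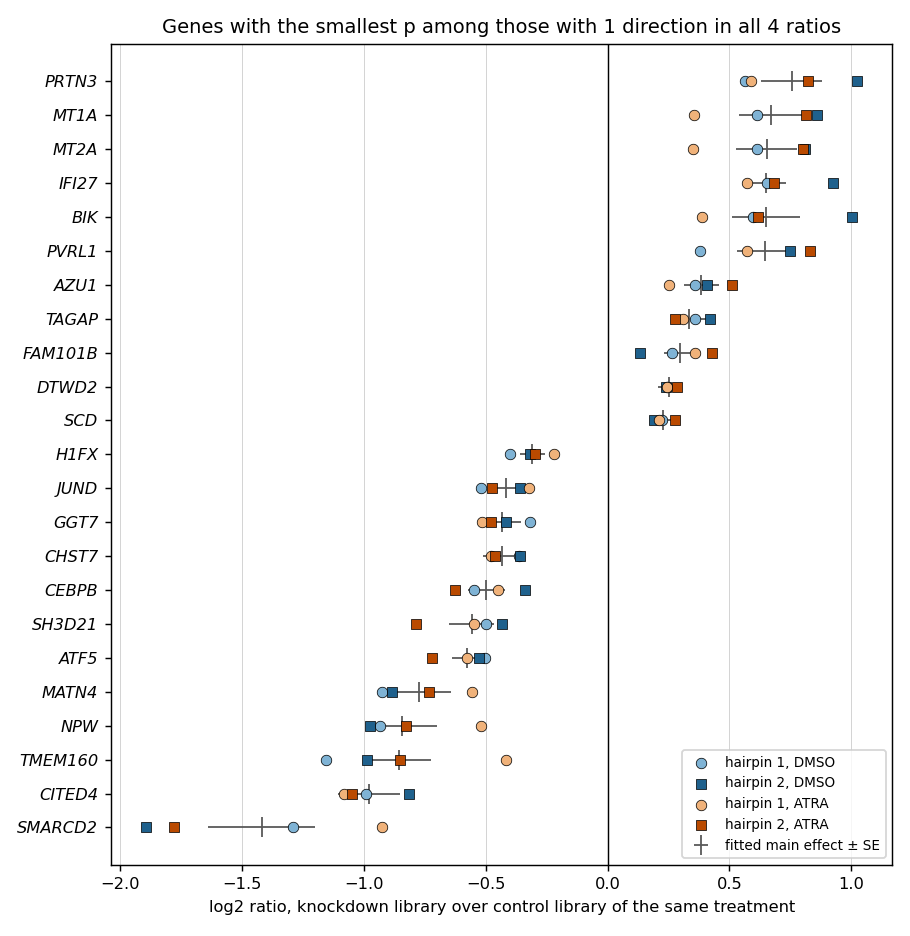
The 4 log2 ratios of each knockdown library over the control library of its treatment (x axis) for 11 higher and 12 lower genes with the smallest p, with the fitted main effect ± SE as a line and tick. Every symbol lies on the side of 0 of its gene, as the choice of these genes required. Ratios run from -1.89 to -0.93 for SMARCD2 and from 0.19 to 0.28 for SCD.

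A rule of size, set after values were seen, asked for every log2 ratio to exceed 0.322 in size, at an average of 5 CPM or more. It was met by 11 higher genes (0.106% of 10358) and 20 lower genes (0.193%). The least extreme members were JUND and SPIN3, whose smallest ratios were -0.322 and -0.330, and TACC2 and GGT7 fell just outside with 0.317 each. HGF, the hepatocyte growth factor gene, had the largest log2 fold change among the 11 higher genes, at 24.5 CPM in the DMSO control against 59.2 and 99.4, and at 8.22 CPM in the ATRA control against 11.3 and 14.7. Its ratios of 1.27 and 2.02 in DMSO and 0.46 and 0.84 in ATRA gave a main effect of 1.27 ± 0.29, which was 0.66 without the DMSO control and 1.69 without the ATRA control.

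HDAC9, a class IIa histone deacetylase gene, stood at 6.00 CPM against 9.50 and 15.6 in DMSO and at 3.86 CPM against 5.72 and 9.86 in ATRA. In both treatments hairpin 2 was above hairpin 1 and both were above the control, with a log2 fold change of 1.03 ± 0.28 (adjusted p = 0.51 in edgeR's main fit and 0.036 with the hairpin term). The higher set also held the syndecan gene SDC2 (0.66 ± 0.16) and ROPN1L (0.54 ± 0.16), besides MT1F, PRTN3, MT1A, MT2A, IFI27, BIK and PVRL1. Among the lower set, PTK7, a pseudokinase of Wnt signalling, stood at 47.2 CPM against 33.6 and 33.5 in DMSO and at 3.97 CPM against 2.77 and 1.90 in ATRA (-0.57 ± 0.12). The others not yet named were TMCC3, ZNF853, ZNF580, EVA1B, LTBP3, RASSF8, GDPD5 and HCST, with log2 fold changes from -0.74 to -0.43, and SPIN3 (-0.41 ± 0.08).

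ATF5 and CEBPB belong to a list of genes of the ATF4 amino acid response, which codes for enzymes, transporters and transfer RNA synthetases that restore amino acid supply. Of 27 measured genes 14 were lower (51.9%) and 1 higher (3.70%) in all 4 ratios, beside 14.2% and 14.6% of all genes, and 11 lower genes had an unadjusted p under 0.05 (40.7%), beside 4.01% of all genes. The median was -0.10, and over the fits leaving out 1 library it lay between -0.15 (without the DMSO control) and -0.07 (without the ATRA control). STC2, a secreted glycoprotein gene, had ratios of -0.23 and -0.28 in DMSO and -0.70 and -0.93 in ATRA (main effect -0.53 ± 0.13, which was -0.26 without the ATRA control and -0.81 without the DMSO control). CBS, the cystathionine beta-synthase gene, stood at 46.7 CPM against 42.2 and 40.2 in DMSO and at 19.6 CPM against 16.5 and 16.6 in ATRA (-0.21 ± 0.06). ATF4 itself had ratios of -0.01, -0.01, -0.03 and -0.10.

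Sterol synthesis and uptake genes, targets of the SREBP factors, stood above the control more often than below it. Of 28 measured genes 10 were higher (35.7%) and 2 lower (7.14%) in all 4 ratios, beside 14.6% and 14.2% of all genes. An unadjusted p under 0.05 was found for 9 higher genes (32.1%), beside 4.15% of all genes, and the list median was 0.12. INSIG1, a feedback regulator of SREBP processing, stood at 71.1 CPM against 94.4 and 106 in DMSO and at 233 CPM against 252 and 292 in ATRA (0.35 ± 0.09, and 0.22 without the DMSO control). SQLE (0.24 ± 0.06), DHCR7 (0.30 ± 0.08) and CYP51A1 (0.28 ± 0.09), which code for enzymes of cholesterol synthesis, were the other named members. Medians by library were 0.16 and 0.19 in DMSO and -0.01 and 0.11 in ATRA, and the list median was 0.05 without the DMSO control and 0.19 without the ATRA control.

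For 44 DNA replication and cell cycle genes, 13 were higher (29.5%) and 0 lower in all 4 ratios, beside 14.6% and 14.2% of all genes. Their median was 0.08, while 18 (40.9%) had opposite signs between treatments with both hairpins, beside 25.2% of all genes. The list median was 0.03 without the ATRA control and 0.13 without the DMSO control, and the median ratio for hairpin 1 in DMSO was -0.0057. KIF11, a mitotic kinesin gene, was higher by 0.16 ± 0.04 with ratios from 0.12 to 0.18, and CDT1, a replication licensing factor gene, by 0.20 ± 0.06. MKI67, the proliferation marker gene, stood at 291 CPM against 303 and 311 in DMSO and at 318 CPM against 433 and 429 in ATRA (0.25 ± 0.08, and 0.08 without the ATRA control). Its ratios were 0.06 and 0.10 in DMSO and 0.44 and 0.43 in ATRA, so most of its main effect came from ATRA. Genes of MYC targets and ribosome biogenesis had 9 higher (30%) and 1 lower (3.33%) of 30, beside 14.6% and 14.2% of all genes. Their median was 0.07, and 0.02 without the ATRA control, with a median ratio of -0.03 for hairpin 2 in DMSO.

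Cytosolic ribosomal protein genes stood more often below the control, with 17 lower (26.2%) and 0 higher of 65, beside 14.2% and 14.6% of all genes. Their median was -0.06. RPS3 stood at 2195 CPM against 2016 and 1977 in DMSO and at 1188 CPM against 1010 and 965 in ATRA (-0.20 ± 0.05). The list median was -0.12 for hairpin 2 alone and -0.01 for hairpin 1 alone, and it was -0.13 without the DMSO control and -0.02 without the ATRA control. Its median ratio was above 0 for hairpin 1 in DMSO (0.04). Many processed copies of these genes exist, and shared reads make single members uncertain.

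In the list of 7 measured genes of MHC and antigen presentation 4 were higher (57.1%) and 0 lower, beside 14.6% and 14.2% of all genes. The list median was 0.12. B2M, which codes for the light chain of class I molecules, had ratios of 0.11, 0.13, 0.12 and 0.13 (0.12 ± 0.04). The class II transactivator gene CIITA, at or below 0.775 CPM in all libraries, was higher by 1.76 ± 0.63. Of 32 myeloid transcription factor genes 9 were higher (28.1%) and 2 lower (6.25%), beside 14.6% and 14.2% of all genes. GFI1B, a transcriptional repressor required for erythroid and megakaryocytic development, stood at 3.57 CPM against 5.67 and 5.06 in DMSO and at 25.6 CPM against 30.9 and 40.0 in ATRA (0.51 ± 0.13). MYB, a progenitor factor, was higher by 0.24 ± 0.06.

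Markers of other blood lineages were also measured, and their part in the results above was not tested. Of 20 monocyte and macrophage markers 10 were listed in both tables. In all 4 ratios 2 of them were higher (20.0%) and 1 lower (10.0%), beside 14.6% and 14.2% of all genes. At an unadjusted p under 0.05, 4 of the 10 were higher (40.0%) and 0 lower, beside 4.15% and 4.01% of all genes, and the median log2 fold change of 0.28 was the largest among the 30 lists. It was 0.08 without the ATRA control. Medians by library were -0.04 for hairpin 1 and 0.35 for hairpin 2 in DMSO, and 0.09 and 0.30 in ATRA. Of these 4 genes MS4A7 (0.67 ± 0.19) and FCGR1A (0.32 ± 0.10) had 1 direction, while SIGLEC1 (0.42 ± 0.12) and CX3CR1 (0.55 ± 0.21), named after their values were seen, were below the control with hairpin 1 in DMSO and above it in the other 3 libraries. The summed level of the 10 markers was 471 CPM in the control and 465 to 481 in the hairpin libraries in DMSO, and 934 CPM against 1041 to 1119 in ATRA. Of 17 eosinophil, basophil and mast cell markers 13 were measured, 5 higher (38.5%) and 1 lower (7.69%), beside 14.6% and 14.2% of all genes. Their summed level was 1719 CPM against 1898 and 2588 in DMSO and 832 CPM against 843 and 1255 in ATRA. The upper values are those of hairpin 2 and follow PRG2, the eosinophil major basic protein gene, which stood at 1307 CPM against 1505 and 2172 in DMSO and at 551 CPM against 581 and 901 in ATRA (0.46 ± 0.19, adjusted p = 0.60 in edgeR's main fit and 0.036 with the hairpin term). EPX, another granule gene of eosinophils, had ratios of -0.69 and -0.30 in DMSO and -0.47 and 0.37 in ATRA.

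Stem and progenitor markers had 2 higher (15.4%) and 0 lower of 13 measured, beside 14.6% and 14.2% of all genes. Erythroid and megakaryocyte markers had 1 higher (16.7%) and 2 lower (33.3%) of 6, and lymphoid markers 0 higher and 2 lower (33.3%) of 6. CD14, a defining monocyte marker, and CLC, the Charcot-Leyden crystal gene of eosinophils, were listed in ATRA only and were not compared.

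**Figure D5:**
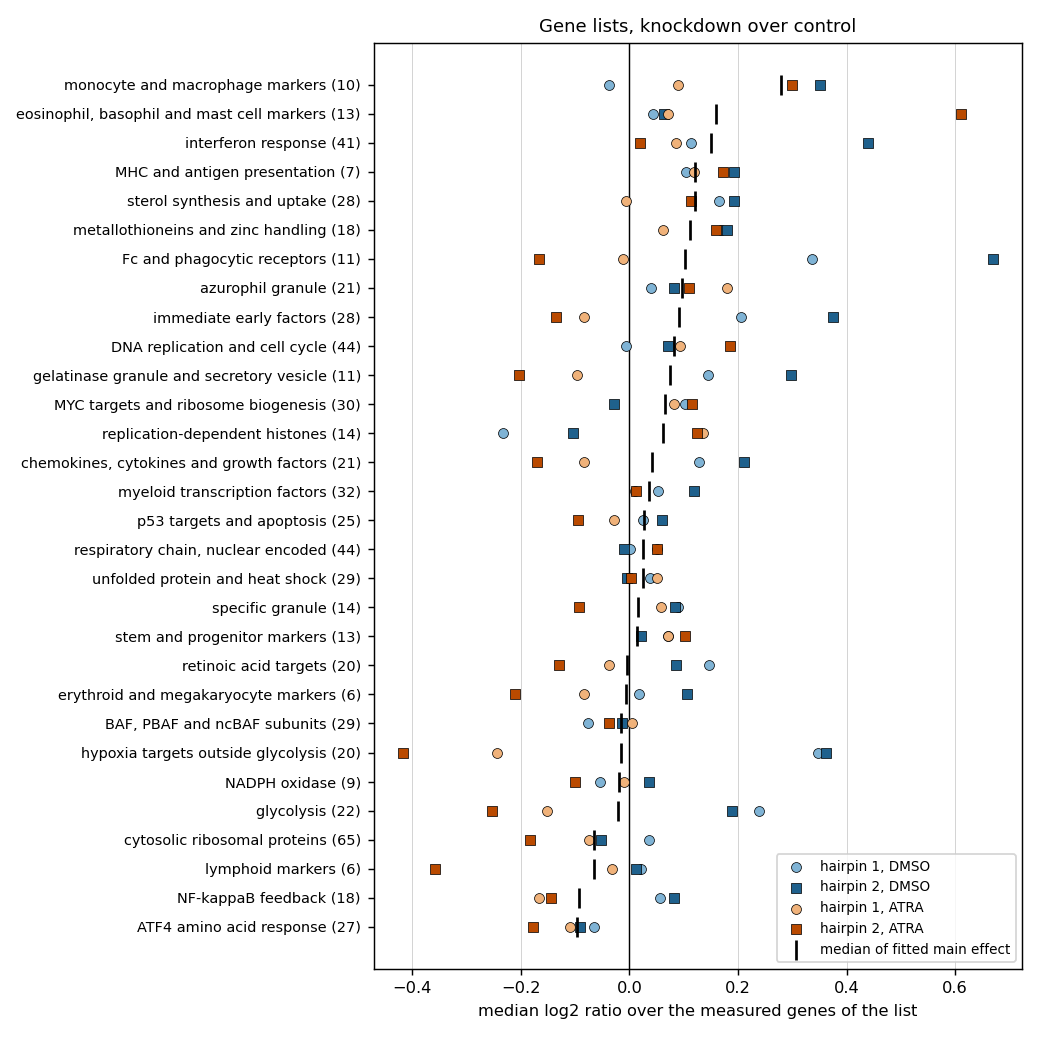
Median log2 ratio over the measured genes of each list (number in brackets) for the 4 knockdown libraries over the control of their treatment (x axis), with the median of the fitted main effect as a black tick. Lists with all 4 symbols on 1 side of 0 include the ATF4 amino acid response below 0 and the azurophil granule, interferon response and metallothionein lists above it, whereas the hypoxia and glycolysis lists have both DMSO symbols above 0 and both ATRA symbols below.

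Whether the knockdown effect differed between treatments was tested as an interaction. With edgeR's quasi-likelihood test in the group fit 6 genes were called (0.0488%), all with a lower effect in ATRA, and 979 had an unadjusted p under 0.05 (7.96%). Of 12301 genes the fit with the hairpin term called 16 with a higher and 113 with a lower effect in ATRA. None of the 6 had 1 direction in the 4 ratios. ENO2, the glycolytic enolase 2 gene, stood at 26.0 CPM in the DMSO control against 40.6 and 40.0, and at 35.5 CPM in the ATRA control against 11.7 and 10.3. The hairpins were above the control in DMSO and far below it in ATRA, a log2 difference of -2.32 (adjusted p = 0.0053, edgeR). Without hairpin 1 in DMSO 2 genes were called, and 1 without hairpin 2 in DMSO or without either hairpin in ATRA.

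Genes of hypoxia and glycolysis were examined by sign. Of 20 measured hypoxia targets outside glycolysis 0 were higher and 0 lower in all 4 ratios, and 17 (85.0%) had opposite signs between treatments with both hairpins, beside 25.2% of all genes. For glycolysis 18 of 22 (81.8%) had opposite signs, and 1 gene had 1 direction. That gene was HK1, a hexokinase gene, with ratios of -0.05 and -0.04 in DMSO and -0.41 and -0.42 in ATRA.

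In the authors' deposited tables, which test knockdown against control within each treatment, 146 genes had an adjusted p under 0.05 in DMSO and 535 in ATRA. Both tables list 38 of them, 13 with the same direction in the authors' deposited tables and 25 with opposite directions. The 13 make up 8.90% of the authors' DMSO list and 2.43% of the authors' ATRA list. All 13 had 1 direction in the 4 ratios computed here. Those ratios rest on the same deposited counts, so the overlap is no separate support. The 13 genes were SMARCD2, ATF5, CITED4 and F8, which were lower, and BIK, HDAC9, HGF, PPFIA4, PRTN3, PVRL1, SDC2, TNS1 and UBASH3B, which were higher. For ATF5 the authors' deposited tables give -0.46 on the log2 scale in DMSO with an adjusted p of 6.18e-11, and -0.58 in ATRA with 2.08e-11. Those tables hold 12 count columns for 6 libraries, and whether runs entered the authors' test as replicates is not stated in the labels.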

How the data were processed

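RNA was measured in 6 NB4 libraries prepared with the NEBNext Ultra kit, per the labels' protocols, although the series' design text speaks of chromatin accessibility. The tools named in the submitters' processing notes are DESeq2, STAR, bcl2fastq and Picard 2.5.0, and the build is GRCh37.p13, while their roles, the counting and the use of strand are not stated there. Raw counts per gene were deposited by the authors, 2 runs per library, for genes above an unstated filter. Further columns, per the file headers, are the authors' normalized counts (signal), the authors' log2 fold changes, apparently shrunken, with p-values, and standard errors and test statistics (scores); of these only the log2 fold changes and p-values were read.

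The 2 runs of a library were summed, full table totals were the library sizes, and genes in both tables were kept after filterByExpr by group, which all 12301 passed. R 4.3.3 with edgeR 4.0.16 (TMM, quasi-likelihood test, treatment as covariate, 3 residual degrees of freedom), limma 3.58.1 and DESeq2 1.42.0 were used, with Benjamini-Hochberg adjustment at 0.05, besides pandas 2.3.3 and matplotlib 3.10.9 under Python 3.11.15. The scripts were tested on simulated data. Each standard error was derived by dividing the size of the log2 fold change by the root of its F statistic. Ratios used TMM-scaled CPM with a prior count of 0.5. GC content and length came from the longest GENCODE v29 transcript of a symbol. The members and the 30 gene lists were chosen with earlier results of these data known, so no list has a test. Named were SMARCD1 to SMARCD3, the 12 genes per direction with 1 direction, a mean of at least 5 CPM and the smallest p, since none passed the adjusted threshold, and up to 4 genes per list with the smallest p; of these, only genes with 1 direction are described, and others were named after their values were seen. Some genes that the rule names are not reported here, although they stay in every fit and count.

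The titles give the same hairpin in both treatments. The hairpin difference in DMSO correlated with that in ATRA across genes with r = 0.221 (12301 genes), and with r = 0.285 for the 10358 genes with at least 5 CPM, genes not being independent replicates. The labels do not say whether the libraries of a hairpin share transduced cells. The fit with the hairpin as a term is given where it changes a call.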

Additional observations from a re-analysis of the deposited data

Results flagged for a closer look

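The knockdown effect differed between DMSO and ATRA for 6 genes by an interaction test in edgeR, all with a log2 effect lower in ATRA. Adjusted p was 0.0053 for ENO2, 0.018 for PFKFB4 (log2 difference -1.30), 0.037 for ADM (-1.50), 0.044 for SPP1 (-1.56), and 0.045 each for BNIP3 (-1.10) and GBE1 (-0.92). PFKFB4, a regulator of glycolytic flux, stood at 32.4 CPM in the DMSO control against 54.2 and 55.4 with the hairpins, and at 117 CPM in the ATRA control against 83.5 and 77.7. BNIP3, a mitophagy receptor gene induced by hypoxia, stood at 173 CPM against 259 and 261 in DMSO and at 194 CPM against 145 and 128 in ATRA. In each of the 6 genes both hairpins were above the control in DMSO and below it in ATRA.

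For 12 gene lists the median ratio had 1 sign for both hairpins in DMSO and the other sign for both in ATRA, and these differences were not tested. The median fitted difference, ATRA minus DMSO on the log2 scale, was -0.65 for hypoxia targets outside glycolysis, -0.50 for Fc and phagocytic receptors, -0.43 for gelatinase granule and secretory vesicle genes, -0.41 for immediate early factors and -0.41 for glycolysis. It was -0.36 for chemokines, cytokines and growth factors, -0.23 for NF-kappaB feedback and -0.19 for retinoic acid targets. It was -0.18 for lymphoid markers, -0.17 for erythroid and megakaryocyte markers, -0.11 for p53 targets and apoptosis and 0.38 for replication-dependent histones. Both ratios within a treatment share 1 control library.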

How the results depend on the processing

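The main fit called 0 genes. Alternatives called 48 with DESeq2, 10 with the hairpin as a replicate block and 11 with that block and GC and length offsets. Total counts called 1 and run 2 alone 1 (ATF5 in each), ATRA alone 1 (ENO2), hairpin 1 alone 6 and hairpin 2 alone 1 (SMARCD2), the last pair chosen after seeing the data. Leaving out 1 library gave 0 to 1, the 1 being ENO2 without the DMSO control. The other alternatives (DESeq2 size factors, no filter, limma-voom, the group fit, run 1, runs at equal depth, offsets alone, DMSO alone) called 0, with 734 to 1183 genes at an unadjusted p under 0.05. Interaction calls, 6 in the main fit, were 129 with the replicate block, 132 with block and offsets, and 1 to 2 when a knockdown library was left out. The count with 1 direction ranged from 3232 (run 2) to 3549 (DESeq2 size factors); total counts gave 1569 higher and 1941 lower.

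Of 506 values for the 23 genes described for their smallest p under 22 alternatives, 0 reversed in sign and 42 passed the threshold. Controls of 1 library per treatment limit all ratios.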

Other observations

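Nuclear-encoded respiratory chain genes had members in both directions, 12 higher (27.3%) and 7 lower (15.9%) of 44 in all 4 ratios, beside 14.6% and 14.2% of all genes. At an unadjusted p under 0.05 stood 1 higher (2.27%) and 2 lower (4.55%), near the 4.15% and 4.01% of all genes, and the list median was 0.03. CYC1, the cytochrome c1 gene, was at 62.8 CPM in the DMSO control against 52.9 and 52.8, and at 71.6 CPM in the ATRA control against 61.0 and 58.6, with even ratios from -0.29 to -0.23 (log2 fold change -0.25 ± 0.05, adjusted p = 0.43 in edgeR and 0.031 in DESeq2). COX5A, a subunit of cytochrome c oxidase, was lower by -0.20 ± 0.05, while UQCR11, a subunit of the cytochrome bc1 complex, was higher by 0.17 ± 0.07. Among 29 genes of the unfolded protein and heat shock responses 6 were higher (20.7%) and 5 lower (17.2%), near the shares of all genes. The mitochondrial chaperonin gene HSPE1 was higher by 0.19 ± 0.05 with ratios from 0.15 to 0.22, and the reticulum chaperone gene HYOU1 was lower by -0.11 ± 0.05.

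Of 21 measured genes of chemokines, cytokines and growth factors, 5 were higher (23.8%) and 2 lower (9.52%), beside 14.6% and 14.2% of all genes. IL1B, the interleukin-1 beta gene, was between 0.216 and 0.422 CPM in DMSO and stood at 22.5 CPM in the ATRA control against 15.9 and 15.4 (-0.53 ± 0.15). TNFSF13B, the gene of the B cell survival factor BAFF, was higher by 0.24 ± 0.09. RARG, a retinoic acid receptor gene, stood at 5.71 CPM in the ATRA control against 3.69 and 3.63 and was lower in 4 of 4 ratios (-0.58 ± 0.20). MERTK, a receptor for the uptake of apoptotic cells, stood at 24.8 CPM against 19.3 and 20.3 in DMSO and at 348 CPM against 313 and 295 in ATRA (-0.25 ± 0.06), whereas the Fc receptor gene FCGR1A was higher by 0.32 ± 0.10.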
